A study of Homo sapiens with 6 samples.

Results

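The genes described here are 7 matrix metalloproteinases (MMPs) and 3 tissue inhibitors of metalloproteinases (TIMPs): MMP1, MMP2, MMP3, MMP9, MMP10, MMP13, MMP14, TIMP1, TIMP2 and TIMP3. They were taken by gene symbol from the array's annotation, and all 10 were found among the 18417 symbols that had at least 1 transcript cluster of their own. A transcript cluster is the set of probes that the array summarises as 1 gene. For 9 of the genes there was 1 such cluster. TIMP3 had 2, and the one with the higher mean over all arrays was used.

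Expression was measured in cells of 3 related human breast cancer lines, 2 arrays per line. The 231BoM-1833 and 231BrM-2a lines are derivatives of MDA-MB-231 selected in mice for growth in bone and in brain, and MDA-MB-231 itself is a triple-negative line of mesenchymal character. All 3 lines were grown in RPMI-1640 with 10% serum, and in each the CD24-/CD44+/ESA+ cells, a surface phenotype used for stem-like cells, were collected on magnetic beads without further treatment. Each derivative is 1 selected line, so a property of the line and of the site it was selected for cannot be told apart. The labels call the arrays of a line biological replicates without naming separate cultures, so the p-values reflect how far these arrays of a line differ, and that spread may be technical.

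MMPs are zinc-dependent endopeptidases that are made as inactive proenzymes and cut the proteins of the extracellular matrix. TIMPs bind the active site of these enzymes and block it. In breast cancer both families are known for their part in invasion and metastasis, and MMP1 is known as a gene of metastasis signatures in derivatives of MDA-MB-231.

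Of the 4 members with a promoter in the RefSeq table (build GRCh38.p14), the 3 that were higher in 231BoM-1833 than in MDA-MB-231 are shown. Each sequence runs 5′ to 3′ on the strand of its gene, with 250 bases before the transcription start and 50 after it. It lies at chr11:102780579-102780878 on the minus strand for MMP10, at chrX:47582186-47582485 on the plus strand for TIMP1 and at chr22:32801455-32801754 on the plus strand for TIMP3. Capitals mark the AP-1 motif TGANTCA (N is any base), the TATA box TATAAA and the GC box GGGCGG, searched on both strands.
MMP10: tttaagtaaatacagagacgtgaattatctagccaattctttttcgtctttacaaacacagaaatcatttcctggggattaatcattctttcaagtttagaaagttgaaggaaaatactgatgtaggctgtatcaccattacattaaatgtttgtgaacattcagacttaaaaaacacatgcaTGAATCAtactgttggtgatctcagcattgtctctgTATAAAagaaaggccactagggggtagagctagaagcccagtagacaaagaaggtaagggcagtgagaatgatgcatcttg
TIMP1: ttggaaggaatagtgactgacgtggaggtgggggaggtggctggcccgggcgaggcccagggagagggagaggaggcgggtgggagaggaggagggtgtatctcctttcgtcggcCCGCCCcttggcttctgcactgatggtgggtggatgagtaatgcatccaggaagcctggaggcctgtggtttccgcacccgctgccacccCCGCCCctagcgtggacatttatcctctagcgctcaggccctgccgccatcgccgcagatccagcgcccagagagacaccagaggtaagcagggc
TIMP3: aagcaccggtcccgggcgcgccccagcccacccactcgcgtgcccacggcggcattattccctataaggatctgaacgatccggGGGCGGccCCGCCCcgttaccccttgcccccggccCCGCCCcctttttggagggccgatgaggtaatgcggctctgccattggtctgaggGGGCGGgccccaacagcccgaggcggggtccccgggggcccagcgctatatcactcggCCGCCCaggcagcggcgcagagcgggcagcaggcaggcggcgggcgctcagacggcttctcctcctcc

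The MMP10 promoter held 1 AP-1 motif, at -67 to -61 from the start, and 1 TATA box, at -31 to -26. AP-1 is the Jun and Fos dimer known to act on many MMP promoters. No GC box was found in the MMP10 window. The TIMP1 promoter held 2 GC boxes, which begin 135 and 45 bases before the start, and the TIMP3 promoter held 5, which begin 166, 158, 131, 76 and 18 bases before it. Neither TIMP window held the AP-1 motif or TATAAA as spelled. Only exact matches were counted, and the TIMP1 window does hold tgagtaa, which differs from the AP-1 motif by 1 base. Whether it acts as an AP-1 site was not tested. The marked motifs do not overlap one another. Among the 35116 promoters of the table, 7.71% held the AP-1 motif, 11.5% the TATA box and 45.0% the GC box. The fourth promoter, of MMP14, held 1 GC box. MMP1, MMP2, MMP3, MMP9, MMP13 and TIMP2 were not in the table.

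Values are log2 intensities after robust multi-array averaging. Depth has no counterpart on arrays, and the number of arrays limits the precision. Array medians over the 21214 clusters with a gene symbol lay between 7.25 and 7.30. Pearson correlations over the clusters were 0.9935 to 0.9959 between arrays of 1 line and 0.9666 to 0.9832 between arrays of different lines. As a guide to the low end, 341 clusters of olfactory receptor genes, which breast cells are not known to use, had a median mean level of 4.49, with the 5th and 95th percentiles at 3.49 and 5.77. This is not a detection limit. The sort markers had mean levels of 12.00, 11.45 and 11.86 for CD44, 6.12, 5.91 and 6.12 for CD24, and 7.80, 8.19 and 8.03 for EPCAM (ESA) in 231BoM-1833, 231BrM-2a and MDA-MB-231. CD44 was lower in 231BrM-2a than in 231BoM-1833 (log2 difference -0.54 ± 0.13, adjusted p = 0.0140), which failed with replicate 1 of 231BoM-1833 (0.0565) or either array of 231BrM-2a (0.0740 and 0.0704) left out. No other comparison of a sort marker passed the test, and the part of CD44 in the results below was not tested.

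Markers of the line's character did not all follow its description as mesenchymal. The mesenchymal filament gene VIM was at 12.91, 12.32 and 12.69 in 231BoM-1833, 231BrM-2a and MDA-MB-231. Of 6 mesenchymal markers, 2 fell in 231BoM-1833 (CAV1, by 0.84, and ZEB1, by 0.44) and 2 in 231BrM-2a (ZEB1, by 0.54, and VIM, by 0.37) against MDA-MB-231. Among 8 luminal markers ESR1 was at 5.12, 5.01 and 5.19 and the cadherin gene CDH1 at 5.24, 5.72 and 5.29, but the keratin genes were high, with KRT8 at 11.61, 12.24 and 11.48, KRT18 at 11.49, 12.11 and 11.97, and KRT19 at 10.88, 8.86 and 10.46. Against MDA-MB-231, 2 luminal markers fell in 231BoM-1833 (KRT18 and FOXA1), and in 231BrM-2a KRT8 rose by 0.75 and KRT19 fell by 1.60 (adjusted p = 0.00246 and 0.000122). The calls of KRT8 and KRT19 held with any 1 array left out, and those of CAV1, ZEB1, VIM, KRT18 and FOXA1 each failed with at least 1 left out. The part of these markers in the results below was not tested.

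Differences were tested with limma over all 21214 clusters, with a call at an adjusted p below 0.05. Both derivatives were set against the same MDA-MB-231 arrays, so the 2 comparisons share those samples. In 231BoM-1833 against MDA-MB-231, 3 members rose (MMP10, TIMP1 and TIMP3), 1 fell (MMP2) and 6 did not pass the test. Across all clusters 15.8% were called in that comparison, 8.43% as higher and 7.38% as lower. Set against MDA-MB-231, 231BrM-2a had no member that rose by limma and 5 that fell (MMP1, MMP2, MMP3, MMP9 and MMP10); at an unadjusted p under 0.05 these counts were 2 and 6. There 19.0% of all clusters were called at the adjusted threshold, 10.5% as higher and 8.59% as lower. The share of all clusters at an unadjusted p was not computed. The unadjusted counts, here and for the lists below, therefore have no background to be set against. Between the derivatives, 231BrM-2a over 231BoM-1833, 1 member was higher (TIMP2) and 6 were lower (MMP1, MMP3, MMP9, MMP10, MMP14 and TIMP3), where 23.5% of all clusters were called. The members' median log2 differences were 0.15, -0.40 and -0.49 in these 3 comparisons, and the medians over all clusters were -0.052, -0.050 and 0.013.

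**Figure D1:**
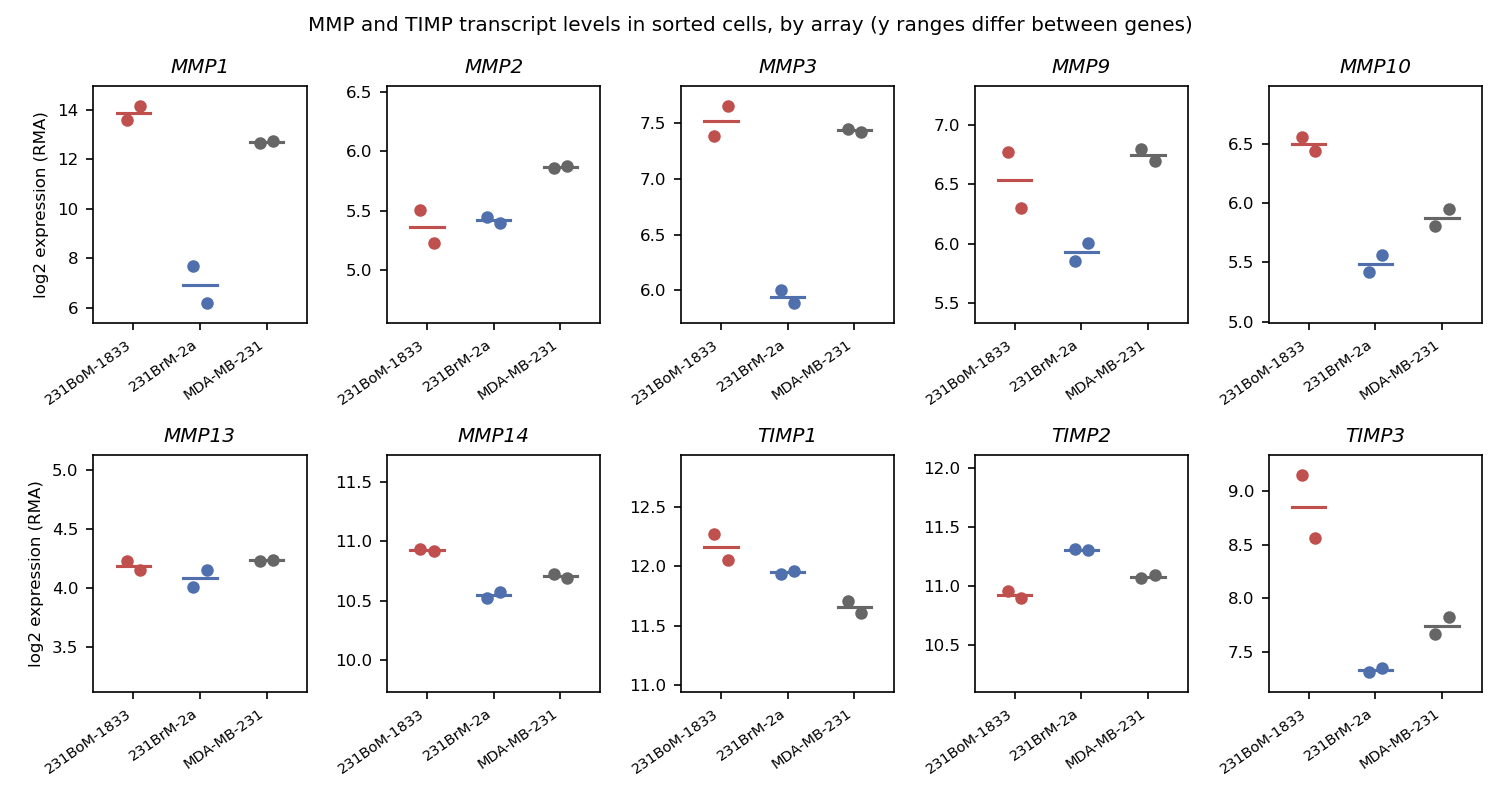
Log2 intensity of the 10 members on each of the 6 arrays, with a panel per gene and 231BoM-1833, 231BrM-2a and MDA-MB-231 side by side; points are arrays, bars are means of 2 arrays, and the y ranges differ between panels. MMP1 sits at 7.67 and 6.18 on the 231BrM-2a arrays and at 12.64 or higher on the other 4, while MMP14, TIMP1 and TIMP2 stay above 10 on all 6.

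MMP1, the interstitial collagenase that cuts fibrillar collagens, differed more than any other member. Its level was 13.57 and 14.15 on the 231BoM-1833 arrays, 7.67 and 6.18 on the 231BrM-2a arrays, and 12.64 and 12.75 on the MDA-MB-231 arrays. The 3 lines did not overlap, with 231BoM-1833 highest and 231BrM-2a far below both others. The 231BrM-2a value of 6.18 lay not far above the olfactory receptor range. The level in 231BrM-2a was 54.4-fold lower than in MDA-MB-231 (log2 difference -5.77 ± 0.39 SE, n = 2 arrays each, adjusted p = 3.13e-05). It was 122-fold lower than in 231BoM-1833 (log2 difference -6.93 ± 0.39, adjusted p = 4.80e-06).

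The size of the MMP1 difference depended on single arrays, because its replicates in 231BrM-2a differed widely (SD 1.05). Without 231BrM-2a replicate 1 the fold was 91.2 against MDA-MB-231 and 205 against 231BoM-1833. Without 231BrM-2a replicate 2 these folds were 32.4 and 72.9, and both comparisons passed the test either way. MMP1 was 2.25-fold higher in 231BoM-1833 than in MDA-MB-231 (log2 difference 1.17 ± 0.39, 95% interval 0.29 to 2.05), which missed the threshold (adjusted p = 0.0729). The spread that enters that test is shared by all 3 lines, and with the 231BrM-2a arrays left out of the fit the adjusted p was 0.00709.

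The stromelysins MMP3 and MMP10 cut proteoglycans, laminin and fibronectin and can activate other proenzymes, MMP1 included. MMP3 was at 7.38 and 7.65 in 231BoM-1833, at 6.004 and 5.89 in 231BrM-2a, and at 7.44 and 7.42 in MDA-MB-231. The 231BrM-2a arrays were below all others, and 231BoM-1833 overlapped MDA-MB-231. Both 231BrM-2a values lay just above the upper end of the olfactory receptor range. MMP3 was 2.80-fold lower in 231BrM-2a than in MDA-MB-231 (log2 difference -1.49 ± 0.12, adjusted p = 8.46e-05) and 2.97-fold lower than in 231BoM-1833 (-1.57 ± 0.12, adjusted p = 3.04e-05). Between 231BoM-1833 and MDA-MB-231 the difference was 0.085 ± 0.12, with a 95% interval of -0.19 to 0.36 (adjusted p = 0.669).

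MMP10 moved both ways around MDA-MB-231. It was at 6.56 and 6.44 in 231BoM-1833, at 5.42 and 5.56 in 231BrM-2a, and at 5.80 and 5.95 in MDA-MB-231. The lines did not overlap, and all but the 231BoM-1833 values lay near the upper end of the olfactory receptor range. MMP10 was 1.54-fold higher in 231BoM-1833 than in MDA-MB-231 (log2 difference 0.62 ± 0.11, adjusted p = 0.00811), which failed once MDA-MB-231 replicate 1 was left out (adjusted p = 0.0630). It was 1.31-fold lower in 231BrM-2a than in MDA-MB-231 (-0.39 ± 0.11, adjusted p = 0.0430), and that call was lost when any 1 of these 4 arrays was left out (adjusted p = 0.0822 to 0.236). Between the derivatives it was 2.01-fold lower in 231BrM-2a than in 231BoM-1833 (-1.01 ± 0.11, adjusted p = 0.000284), which held in every fit tried in which it was tested.

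**Figure D2:**
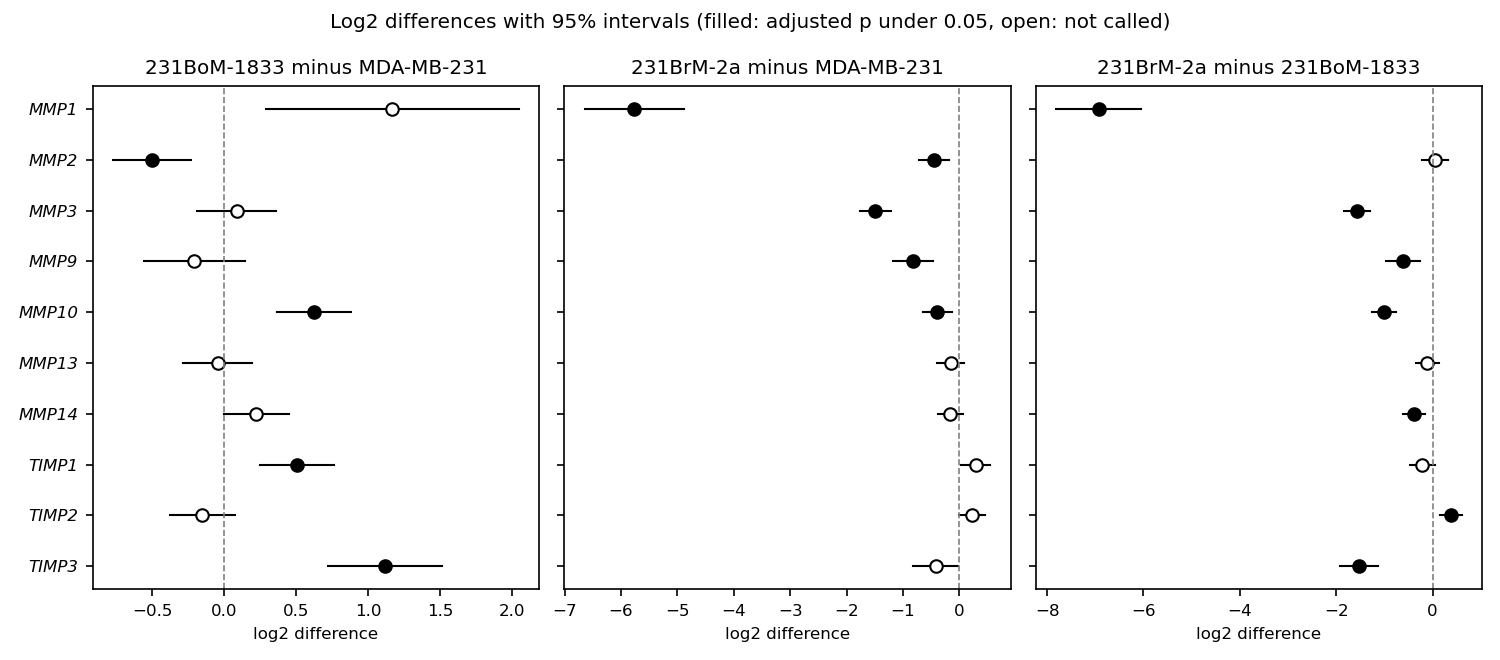
Log2 difference of each member in the 3 comparisons, with 95% intervals from the fit over all clusters; filled points passed an adjusted p below 0.05. The drops of MMP1 in 231BrM-2a, by 5.77 against MDA-MB-231 and by 6.93 against 231BoM-1833, lie far outside the other members' values, while TIMP3 (1.11) and MMP10 (0.62) lie above 0 in 231BoM-1833 against MDA-MB-231.

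The gelatinases MMP2 and MMP9 cut denatured collagen and the type IV collagen of basement membranes. MMP2 was at 5.51 and 5.23 in 231BoM-1833, at 5.44 and 5.40 in 231BrM-2a, and at 5.86 and 5.88 in MDA-MB-231. Both derivatives were below MDA-MB-231 and overlapped each other, and all derivative values lay within the olfactory receptor range. MMP2 was 1.42-fold lower in 231BoM-1833 than in MDA-MB-231 (log2 difference -0.50 ± 0.12, adjusted p = 0.0229). It was 1.36-fold lower in 231BrM-2a than in MDA-MB-231 (-0.45 ± 0.12, adjusted p = 0.0297), and between the derivatives the difference was 0.056 ± 0.12 (95% interval -0.21 to 0.32, adjusted p = 0.794). The call in 231BoM-1833 failed when either MDA-MB-231 array (adjusted p = 0.0917 without replicate 1 and 0.126 without replicate 2) or 231BoM-1833 replicate 2 (0.0841) was left out. The call in 231BrM-2a failed without any 1 of the 4 arrays compared (0.106 to 0.151).

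MMP9 was at 6.78 and 6.30 in 231BoM-1833, at 5.86 and 6.01 in 231BrM-2a, and at 6.80 and 6.69 in MDA-MB-231. The 231BrM-2a arrays were the lowest, just above the upper end of the olfactory receptor range, and the other lines overlapped. MMP9 was 1.76-fold lower in 231BrM-2a than in MDA-MB-231 (log2 difference -0.82 ± 0.16, adjusted p = 0.00663) and 1.52-fold lower than in 231BoM-1833 (-0.61 ± 0.16, adjusted p = 0.0207). Against MDA-MB-231 the adjusted p was 0.0523 with replicate 1 of MDA-MB-231 left out and 0.0538 with replicate 1 of 231BrM-2a left out. Against 231BoM-1833 it was 0.0804 with replicate 1 of 231BoM-1833 left out, and 0.125 and 0.0590 with replicates 1 and 2 of 231BrM-2a left out. Between 231BoM-1833 and MDA-MB-231 the MMP9 difference was -0.21 ± 0.16 (95% interval -0.56 to 0.14, adjusted p = 0.391).

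MMP13, a second collagenase known for its use by bone and cartilage cells, had the lowest values of the set. It was at 4.23 and 4.15 in 231BoM-1833, at 4.01 and 4.16 in 231BrM-2a, and at 4.23 and 4.24 in MDA-MB-231. All 6 values lay within the olfactory receptor range, and no comparison passed the test. The differences were -0.045 ± 0.11 in 231BoM-1833 and -0.15 ± 0.11 in 231BrM-2a against MDA-MB-231 (adjusted p = 0.804 and 0.355), and -0.11 ± 0.11 in 231BrM-2a against 231BoM-1833 (adjusted p = 0.535).

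MMP14 is a membrane-bound enzyme that activates proMMP2 at the cell surface together with TIMP2. Its level was high, with values of 10.94 and 10.92 in 231BoM-1833, 10.52 and 10.57 in 231BrM-2a, and 10.72 and 10.69 in MDA-MB-231. The lines did not overlap, and the spread between its replicates was small (pooled SD 0.028, where the median cluster had 0.113). MMP14 was 1.30-fold lower in 231BrM-2a than in 231BoM-1833 (log2 difference -0.38 ± 0.10, adjusted p = 0.0226), a call lost without any 1 of those 4 arrays (adjusted p = 0.0538 to 0.129). Against MDA-MB-231 it differed by 0.22 ± 0.10 in 231BoM-1833 (95% interval -0.0037 to 0.45, adjusted p = 0.160) and by -0.16 ± 0.10 in 231BrM-2a (adjusted p = 0.303).

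Among the inhibitors, TIMP3, which binds to the matrix and also inhibits ADAM proteases, differed most. It was at 9.15 and 8.56 in 231BoM-1833, at 7.31 and 7.35 in 231BrM-2a, and at 7.66 and 7.82 in MDA-MB-231. Both 231BoM-1833 arrays were above all others, and the lines did not overlap. TIMP3 was 2.16-fold higher in 231BoM-1833 than in MDA-MB-231 (log2 difference 1.11 ± 0.18, adjusted p = 0.00420), which held without any single array. It was 2.89-fold lower in 231BrM-2a than in 231BoM-1833 (-1.53 ± 0.18, adjusted p = 0.000312). Against MDA-MB-231 the difference in 231BrM-2a was -0.42 ± 0.18 (adjusted p = 0.135), and the adjusted p was 0.0234 in a fit without the 231BoM-1833 arrays.

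The second TIMP3 cluster, with a mean level of 4.94, gave other values. In 231BoM-1833 its difference from MDA-MB-231 was 0.072 (adjusted p = 0.704). It was lower in 231BrM-2a, with log2 differences of -0.44 ± 0.12 against MDA-MB-231 (adjusted p = 0.0280) and -0.51 ± 0.12 against 231BoM-1833 (adjusted p = 0.0114). The mean of both clusters was 1.51-fold higher in 231BoM-1833 than in MDA-MB-231 (adjusted p = 0.0184). In the RefSeq table TIMP3 lies within SYN3, TIMP1 overlaps SYN1 and TIMP2 overlaps CEP295NL, while MMP1 and MMP3 overlap the transcribed pseudogene WTAPP1. SYN3 differed by -0.16 in 231BoM-1833 and by -0.23 in 231BrM-2a against MDA-MB-231 (adjusted p = 0.393 and 0.220). SYN1 differed by -0.30 in 231BoM-1833 (adjusted p = 0.0898) and fell by 0.37 in 231BrM-2a against MDA-MB-231 (adjusted p = 0.0438).

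TIMP1, a secreted inhibitor of most soluble MMPs, was at 12.27 and 12.05 in 231BoM-1833, at 11.93 and 11.97 in 231BrM-2a, and at 11.71 and 11.61 in MDA-MB-231. Both derivatives were above MDA-MB-231 on every array. TIMP1 was 1.42-fold higher in 231BoM-1833 than in MDA-MB-231 (log2 difference 0.51 ± 0.11, adjusted p = 0.0189), which failed with either MDA-MB-231 array left out (adjusted p = 0.0661 for replicate 1 and 0.127 for replicate 2) or with replicate 1 of 231BoM-1833 left out (0.0661). In 231BrM-2a the difference from MDA-MB-231 was 0.29 ± 0.11 (adjusted p = 0.107), and from 231BoM-1833 it was -0.21 ± 0.11 (adjusted p = 0.225).

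TIMP2, which inhibits MMP2 and MMP14 and also takes part in proMMP2 activation, was at 10.96 and 10.90 in 231BoM-1833, at 11.31 and 11.30 in 231BrM-2a, and at 11.07 and 11.09 in MDA-MB-231. The order was the reverse of that of MMP14, with 231BrM-2a highest and no overlap. TIMP2 was 1.30-fold higher in 231BrM-2a than in 231BoM-1833 (log2 difference 0.38 ± 0.10, adjusted p = 0.0229), which failed with replicate 2 of 231BoM-1833 left out (adjusted p = 0.0748) or with either array of 231BrM-2a left out (0.110 for replicate 1 and 0.106 for replicate 2). Against MDA-MB-231 it differed by -0.15 ± 0.10 in 231BoM-1833 and by 0.23 ± 0.10 in 231BrM-2a (adjusted p = 0.329 and 0.149).

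Of 16 further MMP and TIMP genes measured, 1 fell and 0 rose by limma in 231BoM-1833 against MDA-MB-231 (3 and 0 at an unadjusted p under 0.05). In 231BrM-2a against MDA-MB-231, 2 rose and 0 fell (3 and 0 at an unadjusted p under 0.05). Of all clusters, 15.8% were called in 231BoM-1833 and 19.0% in 231BrM-2a against MDA-MB-231, and 23.5% between the derivatives. These shares are the background for the called counts of this and the later lists, which were not tested against them. TIMP4, the remaining inhibitor, was at 6.60 and 6.65 in 231BoM-1833, at 8.35 and 8.48 in 231BrM-2a, and at 7.83 and 7.73 in MDA-MB-231. Its order was opposite to that of TIMP3, with 231BrM-2a highest. TIMP4 was 2.23-fold lower in 231BoM-1833 (log2 difference -1.16 ± 0.11, adjusted p = 0.000294) and 1.55-fold higher in 231BrM-2a than in MDA-MB-231 (0.64 ± 0.11, adjusted p = 0.00359). Between the derivatives it was 3.46-fold higher in 231BrM-2a than in 231BoM-1833 (adjusted p = 6.89e-06). MMP15, a membrane-bound relative of MMP14, was 1.44-fold higher in 231BrM-2a than in MDA-MB-231 (adjusted p = 0.0238), which failed with replicate 2 of 231BrM-2a left out (0.174) or with replicate 2 of MDA-MB-231 left out (0.177).

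MMP10, MMP1, MMP3 and MMP13 lie in a cluster of 9 metalloproteinase genes on chromosome 11, ordered in RefSeq as MMP7, MMP20, MMP27, MMP8, MMP10, MMP1, MMP3, MMP12 and MMP13. The 3 that fell in 231BrM-2a against MDA-MB-231, MMP10, MMP1 and MMP3, are neighbours there. The other 6 had mean levels of 3.98 to 4.79 in the 3 lines, within the olfactory receptor range, so a drop in them could not have been seen, and nothing is read from their small differences. In 231BoM-1833 against MDA-MB-231, MMP10 was the 1 gene of the 9 that passed. Of 7 measured genes that flank the cluster, 1 fell in 231BrM-2a: DYNC2H1, a dynein of cilia, differed by -0.58 against MDA-MB-231 (adjusted p = 0.00470) and by -1.28 against 231BoM-1833 (adjusted p = 3.85e-05). It rose by 0.70 in 231BoM-1833 against MDA-MB-231 (adjusted p = 0.00296), where 2 flanking genes rose and 1 fell. The calls of BIRC2, which also rose, and of DDI1, which fell, each failed with either MDA-MB-231 array left out. The mean levels of DDI1 lay within the olfactory receptor range.

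**Figure D3:**
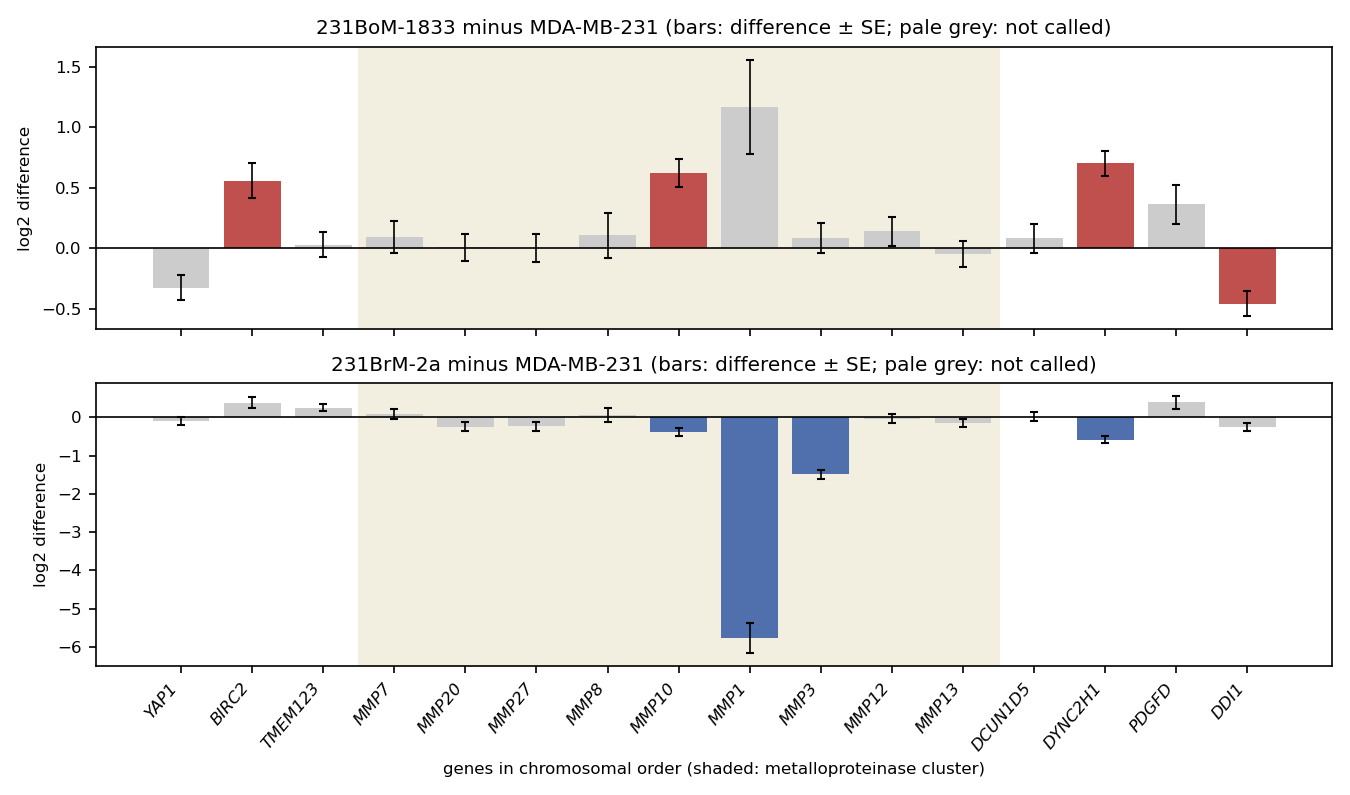
Log2 difference (bar, ± SE) from MDA-MB-231 for the genes of the chromosome 11 metalloproteinase cluster (shaded) and its flanks, in RefSeq order along the x axis, in 231BoM-1833 (top) and 231BrM-2a (bottom); pale grey bars did not pass the test. MMP10, MMP1 and MMP3 lie side by side below 0 in 231BrM-2a, at -0.39, -5.77 and -1.49.

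Proteins that activate, inhibit or dock MMPs were followed as a list of which 18 genes were measured. In 231BoM-1833 against MDA-MB-231, 4 rose and 1 fell. Among them THBS2, a matricellular protein that binds MMP2, was 4.08-fold higher (adjusted p = 1.19e-05), and the urokinase receptor PLAUR and urokinase PLAU, which start the plasmin cascade that activates proMMPs, were 2.42-fold and 2.34-fold higher (adjusted p = 0.000305 and 0.00107). In 231BrM-2a against MDA-MB-231, 7 rose and 2 fell. The tissue plasminogen activator PLAT was 4.20-fold lower (adjusted p = 1.07e-05), while FURIN, the proprotein convertase that processes MMP14, RECK, a membrane-anchored MMP inhibitor, and LRP1, an endocytic receptor that clears MMP complexes, were 2.27-fold, 2.14-fold and 2.08-fold higher (adjusted p = 0.000137, 0.000467 and 0.000330). Between the derivatives 6 were higher and 6 lower in 231BrM-2a. There PLAT, THBS2 and PLAUR were 5.73-fold, 4.05-fold and 3.32-fold lower (adjusted p = 1.36e-06, 4.03e-06 and 1.49e-05), and the matricellular THBS1 was 2.64-fold higher (adjusted p = 0.000321). The list's median differences were 0.12, 0.079 and -0.073 in the 3 comparisons. THBS1 was also 1.68-fold lower in 231BoM-1833 than in MDA-MB-231 (adjusted p = 0.0163), which failed with either MDA-MB-231 array left out (0.0857 and 0.0891). The list's count in 231BoM-1833 was then 3.

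Of 21 transcription factors known to act on MMP promoters, 1 rose and 1 fell in 231BoM-1833 against MDA-MB-231. Of all clusters, 15.8% were called there. JUN, a subunit of AP-1, was at 11.27 and 11.30 in 231BoM-1833, against 10.11 and 10.19 in MDA-MB-231, a 2.20-fold rise (adjusted p = 0.000388). JUN was also 1.33-fold higher in 231BrM-2a than in MDA-MB-231 (adjusted p = 0.0308), a call that failed with any 1 of those 4 arrays left out. It was 1.66-fold lower in 231BrM-2a than in 231BoM-1833 (adjusted p = 0.00159). The part of JUN in the MMP levels was not tested. In 231BrM-2a against MDA-MB-231, 4 rose and 5 fell. The ETS-family factors ETV1, ELK3 and ETV4 were 2.36-fold, 1.998-fold and 1.97-fold lower (adjusted p = 0.000546, 0.000312 and 0.000589), while ETS2 of the same family was 1.84-fold higher (adjusted p = 0.00324). The AP-1 members went both ways. FOSL2 and FOS were 1.90-fold and 1.81-fold higher (adjusted p = 0.00219 and 0.0413), and FOSL1 was 1.57-fold lower (adjusted p = 0.00830). The FOSL1 call failed with replicate 2 of MDA-MB-231 or of 231BrM-2a left out. The FOS call failed with either MDA-MB-231 array or replicate 2 of 231BrM-2a left out. Between the derivatives 2 were higher and 8 lower in 231BrM-2a, with a list median of -0.37 (0.013 over all clusters). ETV1 and ELK3 were 2.82-fold and 1.73-fold lower there (adjusted p = 0.000112 and 0.000737), and FOSL2 was 2.37-fold higher (adjusted p = 0.000290). These counts moved with single arrays. In 231BoM-1833 the count was 1 without either MDA-MB-231 array and 5 without 231BoM-1833 replicate 1. In 231BrM-2a it was 5 without MDA-MB-231 replicate 2 or 231BrM-2a replicate 2, and between the derivatives it was 6 without 231BrM-2a replicate 2.

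Signals that induce MMP genes, with the MMP1 receptor F2R, had 13 measured genes. In 231BoM-1833 against MDA-MB-231, 5 rose and 2 fell. IL1B, an inflammatory cytokine that induces MMP1 and MMP3, was at 11.78 and 12.28 in 231BoM-1833, at 7.84 and 8.33 in 231BrM-2a, and at 9.42 and 9.07 in MDA-MB-231. The lines had the same order as for MMP1 and did not overlap. IL1B was 6.89-fold higher in 231BoM-1833 (adjusted p = 9.26e-05) and 2.23-fold lower in 231BrM-2a than in MDA-MB-231 (adjusted p = 0.00512). Between the derivatives it was 15.4-fold lower in 231BrM-2a than in 231BoM-1833 (adjusted p = 3.42e-06). IL1A and the prostaglandin synthase PTGS2 were 4.38-fold and 4.58-fold higher in 231BoM-1833 than in MDA-MB-231 (adjusted p = 0.000139 and 0.00109). In 231BrM-2a against MDA-MB-231, the list had 2 genes that rose and 4 that fell, and TGFB2 and IL6 were 2.92-fold and 2.49-fold higher (adjusted p = 0.000224 and 0.00420). EREG, an EGF-receptor ligand, was lower in both derivatives, 2.81-fold in 231BoM-1833 and 2.30-fold in 231BrM-2a against MDA-MB-231 (adjusted p = 0.00239 and 0.00417). HBEGF, another EGF-receptor ligand, was 3.94-fold lower in 231BrM-2a than in 231BoM-1833 (adjusted p = 2.44e-05). There 2 of the 13 were higher and 5 lower, and the list's medians were 0.15, -0.10 and -0.19 in the 3 comparisons.

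Among 15 measured matrix substrates, 1 rose and 3 fell in 231BoM-1833 against MDA-MB-231, and 4 rose and 0 fell by limma in 231BrM-2a against MDA-MB-231 (4 and 0 at an unadjusted p under 0.05). The type IV collagen genes COL4A1 and COL4A2, basement-membrane substrates of the gelatinases, were 4.38-fold and 3.06-fold higher in 231BrM-2a (adjusted p = 2.57e-05 and 2.66e-05) and 1.83-fold and 1.74-fold lower in 231BoM-1833 than in MDA-MB-231 (adjusted p = 0.00413 and 0.00180). Tenascin C (TNC) was 4.74-fold higher in 231BoM-1833 than in MDA-MB-231 (adjusted p = 0.000335). Decorin (DCN), a small proteoglycan, was 1.97-fold higher in 231BrM-2a than in MDA-MB-231 (adjusted p = 0.00296) and 3.40-fold higher than in 231BoM-1833 (adjusted p = 7.58e-05). Between the derivatives 5 substrates were higher and 1 lower in 231BrM-2a, and the list's medians were -0.14, -0.026 and 0.13 in the 3 comparisons.

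**Figure D4:**
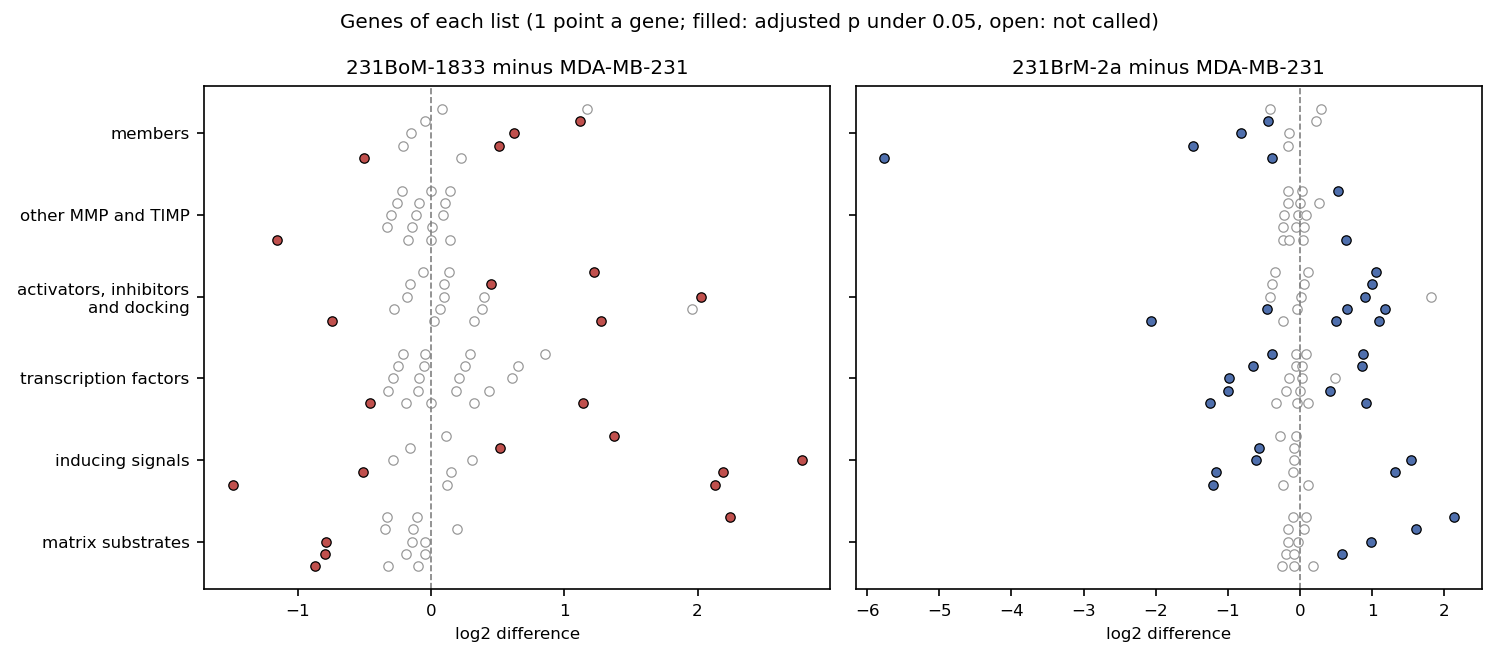
Log2 difference from MDA-MB-231 of each measured gene of the members and 5 lists, in 231BoM-1833 (left) and 231BrM-2a (right); each point is a gene, filled where the adjusted p was below 0.05, and height within a row has no meaning. Each list except the other MMP and TIMP genes holds filled points on both sides of 0 in 231BoM-1833, and MMP1 lies farthest from 0 in 231BrM-2a, at -5.77.

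Markers of other cell types were read in the same fit. Of 8 fibroblast markers, 4 rose and no others passed in 231BrM-2a against MDA-MB-231 (PDGFRB, DCN, COL1A1 and LUM), and 1 fell in 231BoM-1833 (DCN). The rises of COL1A1 and LUM and the fall of DCN each failed with at least 1 array left out. LUM, at 3.50, 4.03 and 3.67 in 231BoM-1833, 231BrM-2a and MDA-MB-231, lay within the olfactory receptor range. The list's mean level was 5.50 and 5.53 in 231BoM-1833, 6.03 and 6.09 in 231BrM-2a, and 5.63 and 5.63 in MDA-MB-231. DCN and COL1A1 are also among the matrix substrates counted above. Their part in the results was not tested. The 7 leukocyte markers averaged 5.34 and 5.35 in 231BoM-1833, 5.14 and 5.13 in 231BrM-2a, and 5.24 and 5.29 in MDA-MB-231, with the pan-leukocyte marker PTPRC at 3.68, 3.71 and 3.73 in those lines. The monocyte marker CD14 was at 8.50, 7.11 and 7.61, the 1 leukocyte marker called in each comparison. It rose by 0.88 in 231BoM-1833 and fell by 0.50 in 231BrM-2a against MDA-MB-231 (adjusted p = 0.00219 and 0.0195), and the fall failed with either MDA-MB-231 array (0.113 and 0.0711) or replicate 1 of 231BrM-2a (0.133) left out. The 4 endothelial markers averaged 6.06 and 6.22 in 231BoM-1833, 5.68 and 5.78 in 231BrM-2a, and 6.14 and 6.14 in MDA-MB-231. The VEGF receptor gene KDR had most of that shift, at 8.43, 6.86 and 7.99; against MDA-MB-231 it fell by 1.13 in 231BrM-2a (adjusted p = 0.000425), while its rise in 231BoM-1833 (adjusted p = 0.0444) failed with any 1 array but 231BoM-1833 replicate 1 left out (0.0617 to 0.213). PECAM1 was the other endothelial marker that fell in 231BrM-2a (adjusted p = 0.0382), a call lost with any 1 of the 4 arrays left out (0.0810 to 0.215). The 3 osteoclast markers averaged 6.28 and 6.33 in 231BoM-1833, 6.25 and 6.45 in 231BrM-2a, and 6.05 and 5.93 in MDA-MB-231. CTSK rose by 0.71 in 231BoM-1833 (adjusted p = 0.0136, and 0.0907 with replicate 2 of MDA-MB-231 left out) and by 1.03 in 231BrM-2a against MDA-MB-231, where in 231BrM-2a CALCR also rose, by 0.71, and TNFRSF11A fell by 0.66. CALCR, at 4.55, 5.24 and 4.53 in 231BoM-1833, 231BrM-2a and MDA-MB-231, lay within the olfactory receptor range. The part of these lists in the results was not tested either. In bulk RNA of sorted, cultured cells such as these, the share of cells expressing a marker and its RNA per cell cannot be told apart.

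The genes whose pattern lay nearest to each member were found by the Euclidean distance of centred log2 values over the 6 arrays, among 17282 genes, for the members that ranged over at least 1 log2 unit. For MMP1 the nearest was EHF, at a distance of 1.73, ahead of CHRDL1 (3.13) and ESM1 (3.18). These distances were several times those of the nearest genes of the other members. The distance is not scaled by a gene's range, which was 7.97 log2 units for MMP1 and 1.14 to 1.85 for MMP3, MMP10 and TIMP3. MMP3 had MAML3, TNFRSF10D and CRYBG1 at distances of 0.18, 0.21 and 0.21. MMP10 had BTBD3, FLT1 and OSBPL3 at 0.088, 0.12 and 0.14, and TIMP3 had TMEM47, MOSPD1 and TRAF1 at 0.15, 0.22 and 0.23.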

How the data were processed

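Per the labels' protocols, each array (Affymetrix Human Gene 1.0 ST) took RNA of sorted cells. The deposited values are log2 intensities that, per the submitters' processing notes, the authors made with Expression Console by RMA; versions, probe annotation and genome build are not given in the sources used here. The deposited table was used as it stands, with genes named by the platform annotation: 19460 clusters carried 1 symbol, 1754 several and 12083 none. The 21214 clusters with a symbol were tested, and only clusters with 1 symbol were named. In R 4.3.3, lmFit and eBayes of limma 3.58.1 fitted a single mean per line, with Benjamini-Hochberg adjustment over all 21214 clusters in each comparison and a threshold of 0.05. The fit had 3 residual degrees of freedom, and the prior added 6.06. Fold changes are 2 to the power of the log2 difference. The fit was tested on simulated data with known differences.

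The members, lists and markers were chosen with earlier results of these data known. Named genes beyond the members were, for each list, those with the largest differences among the called. Alternatives were leaving out each array, fits on 2 lines, a replicate block, median centring, a second quantile normalization, limma's trend and robust options, the mean of a symbol's clusters, a filter that left out the dimmest clusters and testing every cluster. Sequences came from RefSeq tables on GRCh38.p14; no coordinates of the array were used.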

Additional observations from a re-analysis of the deposited data

Results flagged for a closer look

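The difference of the derivatives from MDA-MB-231 was itself unequal for 7 members, by the limma test of 231BrM-2a against 231BoM-1833. The shared MDA-MB-231 arrays cancel from that difference but still enter the spread used in the test. MMP1 stood out, with a log2 difference of -6.93. MMP3 differed by -1.57, TIMP3 by -1.53, MMP10 by -1.01, MMP9 by -0.61 and MMP14 by -0.38. TIMP2 alone was higher in 231BrM-2a, by 0.38. Of all clusters, 23.5% were called in that comparison. The calls of MMP9, MMP14 and TIMP2 each failed with at least 1 array left out. With 2 arrays per line, no array could be tested as an outlier within its line.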

How the results depend on the processing

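With 2 arrays per line, small differences rested on single arrays; an arm left with 1 array was assumed to vary like the others. Over all alternatives, 365 member results kept their sign and their side of the threshold though not always their size, 37 lost their call, 6 gained one and 3 turned sign without a call either way: without 231BoM-1833 replicate 2, MMP3 and MMP9 differed by -0.051 and 0.029 in 231BoM-1833 against MDA-MB-231, and MMP2 by -0.084 in 231BrM-2a against 231BoM-1833; without 231BoM-1833 replicate 1 these were 0.22, -0.45 and 0.20. Leaving out 1 array at a time, the members called numbered 1 to 5 in 231BoM-1833 and 2 to 6 in 231BrM-2a against MDA-MB-231, and 4 to 7 between the derivatives; the clusters called numbered 932 to 2936, 1764 to 4751 and 3001 to 4750. When all 33297 clusters were tested, 2, 3 and 4 members were called, and 2220 clusters in 231BoM-1833 against MDA-MB-231. A filter on the dimmest clusters dropped MMP2, MMP10 and MMP13, and 2 of 7 were then called in 231BoM-1833 and 3 of 7 in 231BrM-2a against MDA-MB-231. A second quantile normalization left 3 members called in 231BrM-2a. No share over all clusters is given beside the counts for the filter and the normalization. The same holds for both comparisons of 231BrM-2a when all clusters were tested. These counts are not read as particular to the members. The cause of these shifts was not tested.

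Replicate numbers did not pair the samples (correlation of deviations 0.036, -0.16 and -0.17). With the replicate number as a block, 4, 4 and 7 members and 2724, 3535 and 4564 clusters were called, and MMP10 in 231BrM-2a against MDA-MB-231 had an adjusted p of 0.0661. With crossed pairing, added after seeing the data, 5, 5 and 7 members and 3821, 4468 and 5387 clusters were called.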
